A study of Mus musculus with 4 samples.

Results

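Retinas of E13.5 mouse embryos were compared for 10 genes of fibroblast growth factor (FGF) signalling, namely the ligand genes *Fgf15*, *Fgf9* and *Fgf3*, the receptor genes *Fgfr1*, *Fgfr2* and *Fgfr3*, and the feedback and target genes *Spry1*, *Spry2*, *Dusp6* and *Etv5*. They were taken by name from the 24062 genes of the count table, and 10 of the 10 passed the filter on low counts. RNA-seq was done on 4 libraries, of which 2 were made from wild type retinas and 2 from retinas labelled Nrf1-CKO, all on a mixed C57BL/6 129 background. Per the study's methods, the mutants were Nrf1 f/f;Six3-Cre, in which Six3-Cre removes a single floxed exon of *Nrf1*, the gene for nuclear respiratory factor 1, from retinal progenitor cells, starting in the central retina. Retinas of littermates were pooled, and the sources used here do not say whether the libraries of a genotype came from separate pools, so the adjusted p values below measure only the spread between 2 libraries, which may be technical. In such bulk samples, fewer cells of a type and less RNA per cell cannot be told apart.

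FGF ligands bind receptor tyrosine kinases together with heparan sulfate chains on the cell surface. The receptors signal through adaptor proteins to the RAS-ERK kinase cascade, which turns on ETS transcription factors such as Etv5 and inhibitors such as the Sprouty proteins and the phosphatase Dusp6 that dampen the signal. In the embryonic eye, this pathway is known for setting the border between neural retina and pigment epithelium, for the start of retinal neurogenesis and for the formation of lens fibers.

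The libraries held 74577660 to 85933945 reads on genes. *Nrf1* had 104 ± 1.17 CPM (counts scaled to library size by TMM) in wildtype retinas against 102 ± 2.35 CPM in mutants (SD, n = 2), but a count over the whole gene says little about the loss of a single exon, so it is no check of the genotype labels. The retinal identity of the samples was checked with 14 progenitor markers, which were all expressed in each library. Their summed level was 7746 and 8355 CPM in wildtype and 6278 and 6820 CPM in mutant retinas. *Ccnd1* alone held 2541 and 2775 CPM of these sums in wildtype and 1390 and 1502 CPM in mutant libraries. Of the 14 markers, 2 were called lower and 12 were not called, with a median log2 fold change of -0.12. Of 12 markers of retinal ganglion cells (RGCs), 11 were called lower in mutant retinas. Among markers of other tissues, 18 of 18 lens, 8 of 8 ciliary margin, 7 of 9 tested pigment epithelium, 9 of 10 macrophage, 6 of 8 endothelium, 6 of 11 mesenchyme and 2 of 5 tested erythroid genes were called higher. Only 2 erythroid markers were at 0 in all libraries.

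The study's thresholds, 1.4-fold and an adjusted p of 0.2, were applied to edgeR's quasi-likelihood test over all tested genes, and a gene past both is said to be called. Of the 10 FGF genes, 3 were called lower (*Fgf15*, *Fgf3* and *Etv5*) and 2 higher (*Fgfr2* and *Fgfr3*) in mutant retinas. Over all 15762 tested genes, 8.04% were called lower and 12.8% higher. The 5 called genes were past 0.05 as well, which with the same fold held for 6.59% of all genes as lower and 9.17% as higher. The mutant libraries lay entirely below the wildtype libraries for 6 of the 10 genes and entirely above for 3, against 31.6% and 30.9% of all genes, or 62.5% in either direction. The median log2 fold change of the 10 genes was -0.32, and that of all tested genes was 0.00073. By role, the 3 ligand genes had negative, the 3 receptor genes positive and the 4 feedback genes negative log2 fold changes, whether called or not. For *Spry1* alone, this sign changed when a library was left out. Signs were mixed among the further tested genes of these roles, with 4 negative and 5 positive for other secreted ligands. There were 2 negative and 5 positive for other receptors and coreceptors, and 3 negative and 7 positive for other feedback inhibitors.

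**Figure D1:**
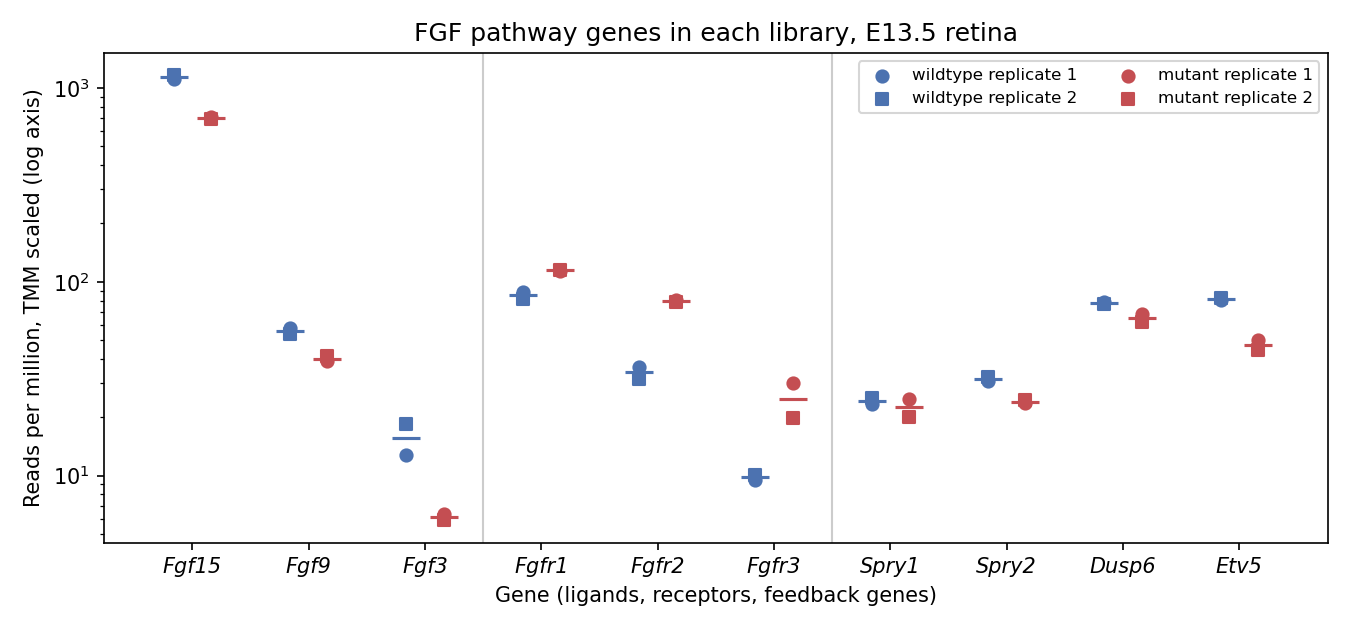
Level of the 10 FGF genes in each of the 4 libraries, in CPM on a log axis. Points are libraries and bars are the means of 2 libraries. The red mutant points lie below the blue wildtype points for the ligand genes and above them for the receptor genes, and the groups overlap for *Spry1*.

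*Fgf15* was by far the most abundant of the 10 genes. It encodes a secreted ligand made by retinal progenitor cells and is the mouse counterpart of human FGF19. Its gene lies on chromosome 7 of GRCm38 from 144896532 to 144900953. It had 97321 and 86215 reads in wildtype libraries and 58826 and 57439 in mutant libraries, or 1111 and 1162 against 708 and 694 CPM. The mutant libraries lay close together and well below both wildtype libraries. The mean fell 1.62-fold, to 61.7% of wildtype, which is -0.70 on the log2 scale (standard error, SE, 0.08, edgeR adjusted p = 0.000385). Per length of its exons, the level of *Fgf15* was 374 ± 5.44 RPKM (reads per kilobase, scaled by library size alone) in wildtype and 228 ± 3.62 RPKM in mutant retinas (SD, n = 2). The next of the 10 genes, *Dusp6*, had 25.0 ± 0.924 RPKM in wildtype retinas. The median of the 14 progenitor markers had a log2 fold change of -0.12, and 2 of them, *Ccnd1* and *Hes5*, were called lower. Their part in the decrease of *Fgf15* was not tested.

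*Fgf3* had the largest decrease of the 10 genes. It encodes a secreted ligand that is studied as a start signal for RGC differentiation in chick and fish. Its gene lies on chromosome 7 from 144838612 to 144843348. Its level was 12.7 and 18.5 CPM in wildtype libraries and 6.33 and 5.87 CPM in mutant libraries. The wildtype libraries differed from each other, with the higher value in replicate 2, but both lay above both mutant libraries. *Fgf3* fell 2.56-fold, with a log2 fold change of -1.35 (SE 0.19, edgeR adjusted p = 0.00109), and this was -1.60 without wildtype replicate 1, -1.05 without wildtype replicate 2 and -0.86 on the deposited normalized values. Only 2.39% of all tested genes had a lower log2 fold change.

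*Fgf9*, on chromosome 14 from 58070671 to 58112854, encodes a ligand of the neural retina that is known to keep it apart from the pigment epithelium. It had 57.4 and 54.1 CPM in wildtype libraries and 38.9 and 41.2 CPM in mutant libraries. The genotypes did not overlap, and the adjusted p was 0.00309 from edgeR, but the log2 fold change of -0.48 (SE 0.08) lay just short of 1.4-fold, which is 0.49 on this scale. It was called at -0.50 with scaling by library size alone, and at -0.52 without wildtype replicate 2 or without mutant replicate 2. Within the summed level of these 3 ligand genes per kilobase, *Fgf15* made up 95.1% to 95.4% in each library, and the ranges of the genotypes overlapped.

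Sequences just upstream of annotated starts of called genes are given here, and use of these starts in the retina was not tested. RefSeq promoter sequences of GRCm38.p6 were matched by symbol for 8 of the 10 genes, in 10 windows of 250 bases that end just before an annotated start. Those of 4 called genes, with the outer start where there are several, are printed 5′ to 3′ on the strand of the gene, with each CpG dinucleotide in capitals. The first is that of *Fgf3* at chr7:144838362-144838611 on the plus strand, with 4 CpG, against a median of 6 in 32851 promoter windows.
Fgf3: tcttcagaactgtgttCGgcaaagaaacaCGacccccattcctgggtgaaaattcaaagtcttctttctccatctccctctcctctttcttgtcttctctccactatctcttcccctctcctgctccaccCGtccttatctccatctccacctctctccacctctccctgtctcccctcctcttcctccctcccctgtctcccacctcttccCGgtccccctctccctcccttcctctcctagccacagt

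*Fgf15*, *Fgf3* and the cell cycle gene *Ccnd1*, which encodes cyclin D1, are neighbours on chromosome 7. *Fgf3* ended 53.2 kb before the start of *Fgf15*, and *Ccnd1*, from 144929931 to 144939831, lay 29.0 kb beyond its end. The genes of this stretch were measured as a list. *Ccnd1* fell from 2658 ± 165 to 1446 ± 79.2 CPM (SD, n = 2; log2 fold change -0.88, SE 0.08, edgeR adjusted p = 0.000229). *Ano1*, which encodes a calcium-activated chloride channel and lies 145 kb from *Fgf15* on the far side of *Fgf3*, fell from 156 ± 10.9 to 52.0 ± 9.90 CPM (log2 fold change -1.58, edgeR adjusted p = 0.000108). The other 4 were not called. *Oraov1* lies between *Fgf15* and *Ccnd1*, only 14.1 kb from *Fgf15*, and had a log2 fold change of -0.19 (adjusted p = 0.294), from -0.32 to -0.05 over the fits without 1 library. *Fadd* and *Tpcn2*, on the outer sides, had values of -0.20 and 0.28. *Fgf4* was near the limit of detection, with 25 and 12 reads in wildtype libraries and 11 and 1 in mutant libraries. *Oraov1* and *Ccnd1* overlap at their ends, and whether the reads were counted by strand is not given in the sources used here.

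Among the receptor genes, *Fgfr2* and *Fgfr3* rose by more than 2-fold, and *Fgfr1* was higher by less than the threshold. The 3 genes encode receptor tyrosine kinases that differ in the ligands they bind. *Fgfr2*, on chromosome 7 from 130162451 to 130266808, had 36.4 and 31.6 CPM in wildtype libraries and 80.8 and 79.0 CPM in mutant libraries. The mutant libraries agreed closely and lay far above both wildtype libraries. Its log2 fold change was 1.23 (SE 0.09, edgeR adjusted p = 9.88e-05), that is 2.35-fold, and it ranged from 1.14 to 1.34 over the fits without 1 library. *Fgfr3*, on chromosome 5 from 33721724 to 33737068, had 9.47 and 10.1 CPM in wildtype libraries and 30.1 and 19.8 CPM in mutant libraries. It was higher in both mutant libraries, most of all in replicate 1. Its log2 fold change was 1.35 (SE 0.18, edgeR adjusted p = 0.00109), and it was 1.62 without mutant replicate 2, 1.01 without mutant replicate 1 and 0.96 on the deposited normalized values. *Fgfr1*, on chromosome 8 from 25518759 to 25575718, had 88.8 and 81.8 CPM in wildtype libraries and 113 and 115 CPM in mutant libraries. Its groups did not overlap, and its log2 fold change of 0.42 (SE 0.08, edgeR adjusted p = 0.00511) was smaller than 1.4-fold, except at 0.49 without wildtype replicate 1.

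Of the reads per kilobase of these 3 receptor genes, *Fgfr1* held 65.0% and 64.9% in wildtype libraries and 48.9% and 52.9% in mutant libraries. The share of *Fgfr2* was 25.5% and 24.0% in wildtype and 33.3% and 34.6% in mutant retinas, and that of *Fgfr3* was 9.55% and 11.1% against 17.9% and 12.5%. Among these 3, *Fgfr1* was the most abundant in each library, with 8.70 ± 0.652 RPKM in wildtype and 11.5 ± 0.106 RPKM in mutant retinas. *Fgfr2* rose from 3.32 ± 0.390 to 7.68 ± 0.136 RPKM and *Fgfr3* from 1.38 ± 0.0405 to 3.46 ± 1.02 RPKM (SD, n = 2). The 4th FGF receptor gene, *Fgfr4*, had at most 50 reads in a library and was not called.

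**Figure D2:**
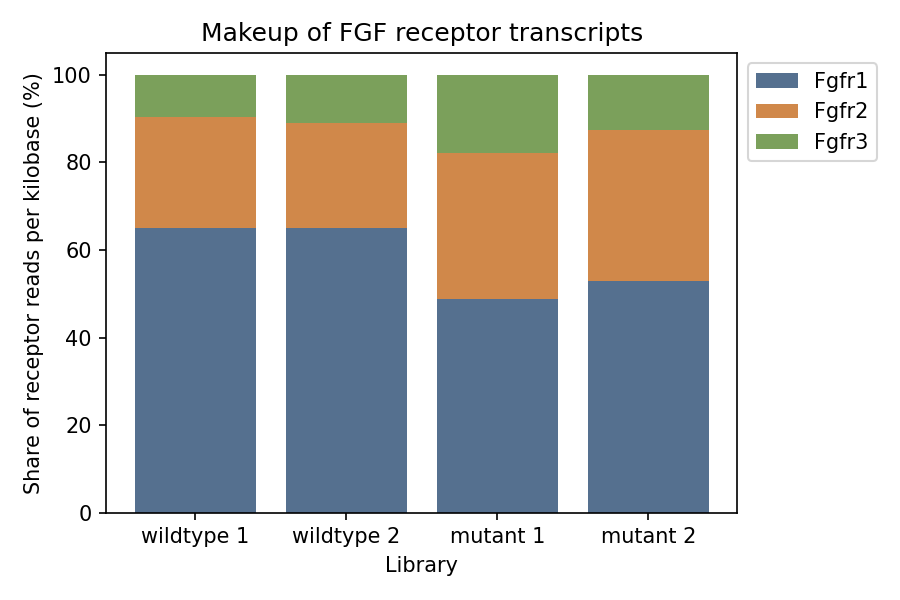
Share of the reads per kilobase of *Fgfr1*, *Fgfr2* and *Fgfr3* that each gene held, in percent, in each of the 4 libraries. The *Fgfr1* part shrinks from 65.0% and 64.9% in wildtype libraries to 48.9% and 52.9% in mutant libraries, while the *Fgfr2* part grows in both.

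Lens and ciliary margin tissue express FGF receptors too, so the summed levels of their markers are given beside these values. The 18 lens markers summed to 227 and 556 CPM in wildtype libraries and to 10486 and 4331 CPM in mutant replicates 1 and 2. In mutant replicates 1 and 2, *Fgfr3* had 30.1 and 19.8 CPM, *Fgfr2* 80.8 and 79.0 CPM and *Fgfr1* 113 and 115 CPM. Each lens marker was detected in every library. The 8 ciliary margin markers summed to 383 and 363 CPM in wildtype libraries and to 808 and 772 CPM in mutant libraries, with log2 fold changes from 0.73 to 2.82. For the 10 pigment epithelium markers the sums were 235 and 171 against 426 and 453 CPM, and for the 11 mesenchyme markers 268 and 184 against 386 and 330 CPM. The part of these tissues in the higher receptor levels was not tested.

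The windows upstream of both called receptor genes differ in sequence. The window of the inner *Fgfr3* start, not printed, has 24 CpG. That of *Fgfr2* at chr7:130266809-130267058 on the minus strand is poor in CpG, with 2. That of the outer *Fgfr3* start at chr5:33721474-33721723 on the plus strand has 19.
Fgfr2: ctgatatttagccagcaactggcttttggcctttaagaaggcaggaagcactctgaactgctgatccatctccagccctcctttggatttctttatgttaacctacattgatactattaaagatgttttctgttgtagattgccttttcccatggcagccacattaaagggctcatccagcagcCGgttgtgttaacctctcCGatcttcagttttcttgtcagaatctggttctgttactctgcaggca
Fgfr3: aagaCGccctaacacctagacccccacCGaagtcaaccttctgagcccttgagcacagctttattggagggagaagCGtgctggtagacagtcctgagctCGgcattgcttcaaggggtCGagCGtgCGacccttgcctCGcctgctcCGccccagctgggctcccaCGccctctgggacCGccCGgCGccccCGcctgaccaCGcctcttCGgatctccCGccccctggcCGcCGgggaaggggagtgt

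**Figure D3:**
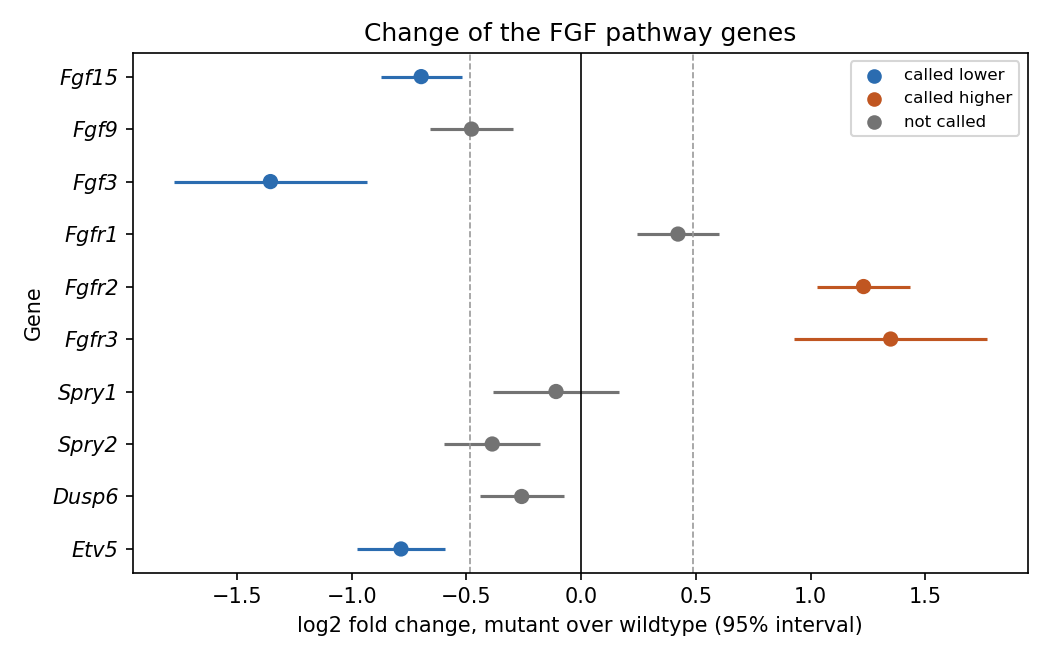
Log2 fold change of the 10 FGF genes, mutant over wildtype, with 95% intervals from edgeR's quasi-likelihood fit. Dashed lines mark a fold change of 1.4 in either direction, and the 5 called genes are in color. *Fgfr2* and *Fgfr3* lie beyond 1 on the right, and *Fgf3* beyond -1 on the left.

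Of the 4 feedback and target genes, only *Etv5* was called. *Etv5*, on chromosome 16 from 22381313 to 22439570, encodes an ETS transcription factor that is used as a readout of FGF signalling. It had 80.2 and 82.4 CPM in wildtype libraries and 49.9 and 44.4 CPM in mutant libraries. The libraries of each genotype were close to each other and the groups lay far apart. It fell 1.72-fold, with a log2 fold change of -0.79 (SE 0.08, edgeR adjusted p = 0.000332), and was called in each of the alternative analyses. The window before its inner start, not printed, had 18 CpG. The window before its outer start, at chr16:22439571-22439820 on the minus strand, had the most CpG of the 10 windows, 27, more than 91.4% of all promoter windows.
Etv5: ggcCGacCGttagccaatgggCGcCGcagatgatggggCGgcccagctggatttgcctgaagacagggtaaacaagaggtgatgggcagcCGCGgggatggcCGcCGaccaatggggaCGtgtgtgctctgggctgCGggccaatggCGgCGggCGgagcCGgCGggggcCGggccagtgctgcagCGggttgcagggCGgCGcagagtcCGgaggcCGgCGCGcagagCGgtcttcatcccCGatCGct

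*Spry2*, on chromosome 14 from 105891947 to 105896819, encodes a Sprouty inhibitor of receptor signalling. It had 30.6 and 32.3 CPM in wildtype libraries and 23.6 and 24.5 CPM in mutant libraries, with a log2 fold change of -0.39 (SE 0.09, edgeR adjusted p = 0.0164). *Dusp6*, on chromosome 10 from 99263231 to 99267489, encodes the phosphatase that inactivates ERK. It had 78.8 and 76.6 CPM in wildtype libraries and 68.1 and 61.8 CPM in mutant libraries, with a log2 fold change of -0.26 (SE 0.08, edgeR adjusted p = 0.0491). Both genes lay below wildtype in both mutant libraries, by less than 1.4-fold. *Spry1*, the related Sprouty gene on chromosome 3 from 37639947 to 37644599, had 23.3 and 25.1 CPM in wildtype libraries and 24.7 and 20.2 CPM in mutant libraries. Its groups overlapped, and its log2 fold change of -0.11 had a 95% interval from -0.38 to 0.16 (edgeR adjusted p = 0.577), so no direction can be given for it from these libraries.

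The 10 promoter windows cover 8 of the 10 genes, and no window was matched for *Fgf15* or *Fgfr1*. None of the 10 promoter windows held the NRF1 motif, written GCGC, any base, TGCGC on either strand, which was found in 3.74% of all promoter windows of this length. The same was true of the core TGCGCA, found in 6.43%, and of the ETS motif CCGGAAG, found in 6.91%. These letters are only absent from the 250 bases searched, and with shares this low, absence from 10 windows says little.

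The levels per kilobase placed the genes in the order *Fgf15*, *Dusp6*, *Etv5*, *Spry2*, *Fgf9*, *Fgfr1*, *Spry1*, *Fgf3*, *Fgfr2* and *Fgfr3* in wildtype retinas, from 374 to 1.38 RPKM. Among neighbours in this order, *Fgfr1* and *Spry1* overlapped between libraries. In mutant retinas, *Fgf15* and *Dusp6* came before *Fgfr1*, *Spry2*, *Etv5*, *Fgf9*, *Fgfr2*, *Spry1*, *Fgfr3* and *Fgf3*. There *Fgfr1*, *Spry2* and *Etv5* did not differ beyond their spread, at 11.5 ± 0.106, 11.4 ± 0.271 and 11.4 ± 0.965 RPKM (SD, n = 2), nor did *Fgfr2* and *Spry1*. The ties of *Fgfr1* and of *Fgfr2* rest on the exon union as length. With the longest transcript, mutant retinas had 22.5 ± 0.207 RPKM of *Fgfr1* against 11.4 ± 0.271 of *Spry2* and 11.8 ± 0.996 of *Etv5*, and 17.9 ± 0.317 RPKM of *Fgfr2* against 8.04 ± 1.17 of *Spry1* (SD, n = 2).

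The rest of the pathway was read from 7 lists with 95 further genes, of which 85 passed the filter. Of these, 5 were called lower and 11 higher, 18.8% in all, close to the 20.9% of all genes, and their median log2 fold change was 0.06. Among the adaptors and members of the RAS-ERK cascade, 0 of 24 were called by edgeR, by DESeq2 or on the deposited values, 1 had an unadjusted p under 0.05, and their log2 fold changes lay between -0.21 and 0.24. The 4 intracellular FGF homologous factors, which bind sodium channels and are not secreted, were not called by these tools either, and 1 of them had an unadjusted p under 0.05.

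**Figure D4:**
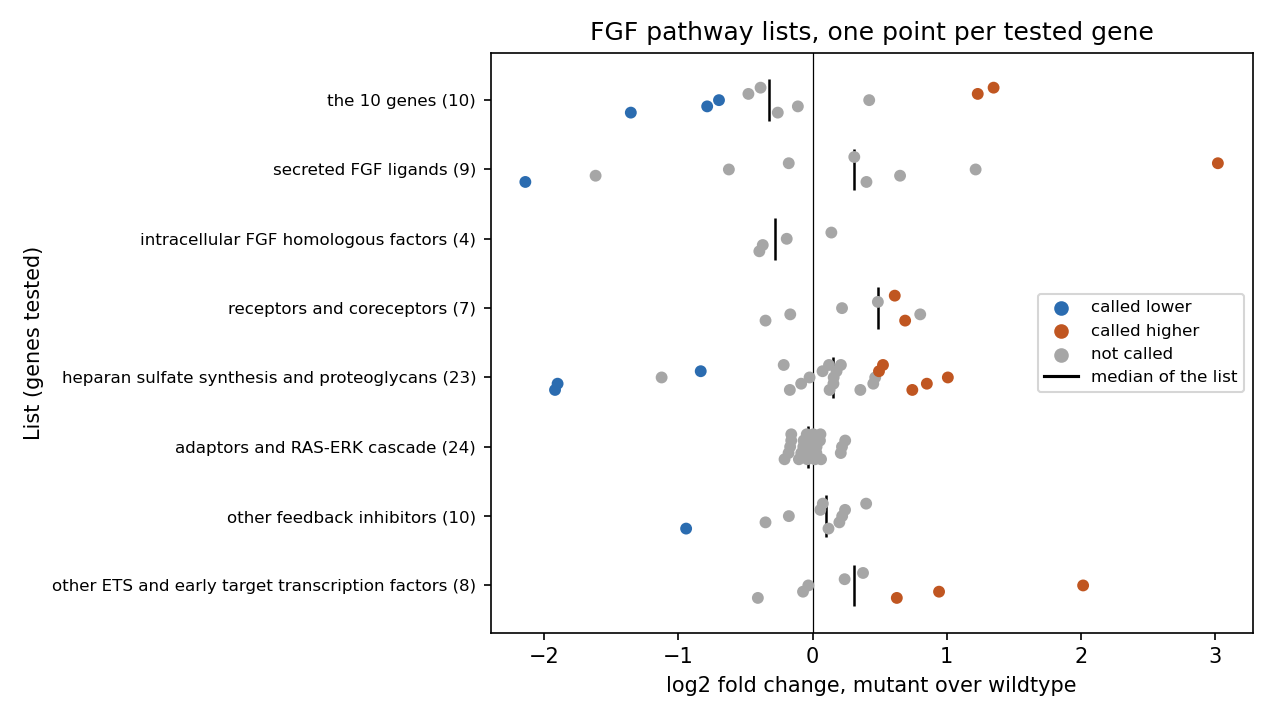
Log2 fold change, mutant over wildtype, of each tested gene in the lists of the FGF pathway, with the median of each list as a vertical line. The 24 adaptors and RAS-ERK genes cluster near 0, between -0.21 and 0.24, while heparan sulfate genes spread from -1.92 to 1.01.

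Of the other secreted ligands, 9 of 15 passed the filter, and most were rare. *Fgf18* fell from 1.78 and 2.97 CPM in wildtype libraries to 0.626 and 0.447 CPM in mutant libraries, with a log2 fold change of -2.14 (SE 0.40, edgeR adjusted p = 0.00546), which was -0.59 on the deposited normalized values. *Fgf1* was higher, but from only 6 and 3 reads in wildtype libraries against 45 and 31 in mutant libraries. It was below the level set for named genes and is given because no other ligand was called higher by edgeR's quasi-likelihood test. *Fgf2*, with 19 and 11 reads in wildtype and 47 and 24 in mutant libraries, was called higher in 2 of 15 alternative analyses. The log2 fold change of *Fgf1* on the deposited values was 0.34, below 1.4-fold. *Fgf8*, which acts with *Fgf3* in the early optic cup, had 51 and 173 reads in wildtype libraries and 82 and 74 in mutant libraries, so the groups overlapped.

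In the list of receptors and coreceptors, *Flrt2* and *Flrt3*, membrane proteins that can bind FGF receptors, were called higher. *Flrt3* rose from 66.8 ± 4.97 to 108 ± 8.86 CPM (SD, n = 2, log2 fold change 0.69, edgeR adjusted p = 0.000921). *Flrt2* rose from 182 ± 17.8 to 278 ± 8.31 CPM (log2 fold change 0.61, edgeR adjusted p = 0.00153), but it was not called when the fold itself was tested against 1.4 with glmTreat. *Fgfrl1*, which encodes a receptor without a kinase domain, had a log2 fold change of 0.22 (adjusted p = 0.0974).

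Heparan sulfate genes moved both ways, with 3 of 23 tested genes called lower and 5 higher, 34.8% in all against 20.9% of all genes. *Ndst3* and *Ndst4*, which encode sulfotransferases of heparan sulfate synthesis, were both lower. *Ndst3* fell from 11.5 and 15.5 CPM in wildtype libraries to 4.44 and 2.79 CPM in mutant libraries (log2 fold change -1.90, edgeR adjusted p = 0.000705), and *Ndst4* fell from 5.23 ± 0.158 to 1.38 ± 0.0978 CPM (SD, n = 2, log2 fold change -1.92, edgeR adjusted p = 0.000491). The deposited normalized values gave -1.10 for *Ndst3* and -0.78 for *Ndst4*. The glypican gene *Gpc2* fell from 95.4 ± 9.26 to 53.5 ± 1.60 CPM (log2 fold change -0.83, edgeR adjusted p = 0.000318). *Ndst1* and *Ndst2*, of the same family as *Ndst3*, had log2 fold changes of 0.16 and 0.16 and were not called. *Sulf1*, which encodes a sulfatase that removes sulfate groups from these chains, rose from 33.4 ± 2.41 to 67.2 ± 4.66 CPM (log2 fold change 1.01, edgeR adjusted p = 0.000177). The glypican genes *Gpc6* and *Gpc4* rose as well, with log2 fold changes of 0.85 and 0.74, as did *Sdc2* and *Ext1*, with 0.52 and 0.49. Both *Sdc2* and *Ext1* lay near the threshold and were not called with glmTreat, on the deposited normalized values or without wildtype replicate 2, and *Ext1* also not with scaling by library size or without mutant replicate 2. The 12 RGC markers, of which 11 were called lower and all 12 had both mutant libraries below wildtype, summed to 1956 and 2204 CPM in wildtype libraries and 779 and 597 CPM in mutant libraries, and their part in the decreases of *Ndst3*, *Ndst4* and *Gpc2* was not tested. Markers of other tissues were higher in the same libraries as the 5 increased genes, with median log2 fold changes of 4.42 for lens, 1.13 for ciliary margin, 0.99 for pigment epithelium, 1.96 for macrophages and microglia, 1.16 for endothelium and 0.73 for mesenchyme, and their part in these increases was not tested either.

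Of 10 other tested feedback inhibitors, only *Dusp4*, which encodes a nuclear phosphatase for ERK, was called. That is 10%, against 20.9% of all genes called in either direction and 8.04% called lower. Of the 10, 3 had negative and 7 positive log2 fold changes, with a median of 0.10 and a highest value of 0.40 for *Dusp5*. *Dusp4* fell from 38.7 and 44.9 CPM in wildtype libraries to 21.2 and 22.2 CPM in mutant libraries, a log2 fold change of -0.94 (SE 0.10, edgeR adjusted p = 0.000339). *Spry4* had a log2 fold change of -0.35 (adjusted p = 0.139). *Etv4*, a close relative of *Etv5*, had 17.4 and 16.6 CPM in wildtype libraries and 11.3 and 14.3 CPM in mutant libraries, a log2 fold change of -0.41 (edgeR adjusted p = 0.0641), which was -0.25 without mutant replicate 1 and -0.59, and then called, without mutant replicate 2. For *Etv1* the genotypes overlapped. Among the other ETS and early target genes, 3 of 8 were called and all 3 were higher, against 12.8% of all genes called higher. *Egr1*, an immediate early gene that ERK and other stimuli can induce, rose from 1.49 ± 0.0266 to 6.03 ± 0.299 CPM (log2 fold change 2.02, edgeR adjusted p = 0.000294), with a log2 fold change of 0.86 on the deposited normalized values. *Ets1* rose from 16.4 ± 0.734 to 31.6 ± 0.727 CPM (log2 fold change 0.94, edgeR adjusted p = 0.000294), and *Elk3*, another ETS gene, had a log2 fold change of 0.63 (adjusted p = 0.0124), which was below 1.4-fold on the deposited normalized values and without wildtype replicate 2 and was not called with glmTreat. *Ets1* and *Elk3* are also known from blood vessels, and the 8 endothelial markers summed to 270 and 273 CPM in wildtype libraries and 290 and 282 CPM in mutant libraries, with 6 of them called higher and 1 lower. The sum includes *Kdr*, the gene called lower, and the other 7 summed to 70.1 and 62.0 CPM in wildtype libraries and 146 and 145 CPM in mutant libraries. Their part in the increases of *Ets1* and *Elk3* was not tested.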

How the data were processed

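RNA-seq libraries of E13.5 retinas (2 wildtype, 2 mutant) were used. Per the paper's methods, Tophat (version 2.7.2 in the submitters' notes) placed the reads on mm10. The authors deposited raw HTSeq counts per gene. They also deposited normalized values on a log2 scale, whose method is not given in the sources used here. In both tables the header line was shifted by blank cells, and its 4 names were read in order onto the 4 value fields. The 5 HTSeq summary rows, 74.0% to 75.0% of all entries, were left out. Most of these were alignments that were not unique, so genes with close copies lose reads.

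Counts were filtered with filterByExpr (minimum count of 10), scaled with TMM factors between 0.992 and 1.02 and tested with edgeR 4.0.16 in R 4.3.3 (quasi-likelihood test, genotype only, Benjamini-Hochberg adjustment over 15762 genes), which was tested on simulated data. Standard errors come from the fold change and its F statistic. Cuffdiff, which the study used, needs alignments, which were not used here. Levels per kilobase use library size alone and GENCODE M21 exon unions. Gene coordinates and promoters are from RefSeq GRCm38.p6, the same build as mm10. Intervals cover counting error and the spread of 2 libraries, and PCR copies are not independent molecules.

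The 10 genes, the lists and the markers were chosen with earlier results of these data known. Named genes were the 10 genes, the *Fgf3* to *Ccnd1* neighbours, and per pathway list up to 3 called genes per direction with the largest fold, no overlap and at least 1 CPM. *Fgf1*, *Ext1*, *Sdc2* and other genes outside this rule were named after their values were seen. Alternatives were DESeq2 1.42.0, other scaling, filters, tests and thresholds, a replicate block, limma 3.58.1 on the deposited log2 values, and each library left out. Replicate libraries of either genotype differed beyond counting noise (chi-square per gene 42.0 and 51.5, wildtype first).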

Additional observations from a re-analysis of the deposited data

How the results depend on the processing

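The 3 lower and 2 higher calls among the 10 FGF genes had the same number and direction with DESeq2, upper quartile scaling, TMM factors without markers of other tissues, both other filters, glmTreat, the exact test, an adjusted p of at most 0.05 and the deposited values. With each library left out in turn, 3 to 4 of them were called lower and 2 to 3 higher, since *Fgf9* or *Fgfr1* passed 1.4-fold. Scaling by library size also added *Fgf9*, at -0.50. *Spry1* turned to 0.029 without mutant replicate 2 and ranged from -0.26 to that value over the fits without 1 library. Over the 10 genes, 145 of 150 recomputed values kept their direction and side of the threshold. All other pathway calls were 5 lower and 7 higher with glmTreat as well as on the deposited values, and 6 to 7 lower and 9 to 13 higher with each library left out. Over all genes, the calls were 743 lower and 1188 higher with glmTreat and 722 lower and 944 higher on the deposited values, and 1071 to 1402 lower and 1703 to 1856 higher with each library left out. No shared effect of the replicate number was seen, as the correlation of replicate differences between genotypes was -0.0025. This value cannot show whether the libraries were made in matched pairs. With the replicate number as a block, 3 of the 10 genes were called lower and 2 higher, with 1256 lower and 1970 higher over all genes.

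Levels per kilobase depend on the length used. With the longest transcript, the wildtype means were 632 RPKM for *Fgf15*, 15.6 for *Fgf9*, 17.0 for *Fgfr1*, 7.74 for *Fgfr2*, 2.32 for *Fgfr3*, 8.79 for *Spry1*, 28.0 for *Dusp6* and 20.6 for *Etv5*. By these means, *Fgfr1* stood above *Spry2* and *Fgf9*, and *Fgfr2* above *Fgf3*. *Fgf9*, at 15.6 ± 0.938 RPKM, lay above *Spry2*, at 15.2 ± 0.336 RPKM, by less than its spread (SD, n = 2). *Fgfr1*, *Fgfr2* and *Fgfr3* kept their order among themselves. With 2 libraries per genotype, changes near 1.4-fold could not be placed on either side of it.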
